A study of Mus musculus with 4 samples.

Results

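Tbx2, Tbx3, Tbx15 and Tbx18 encode transcription factors of the T-box family that are active in limb mesenchyme. They were chosen by name, as the limb mesenchyme T-box genes other than the pair tied to forelimb and hindlimb identity. They are 4 of the 22350 protein-coding genes annotated on mouse chromosomes 1 to 19 and X. Chromatin around them was measured by ATAC-seq, in which the transposase Tn5 cuts and tags open DNA, in fixed cells of forelimbs and hindlimbs from E11.5 embryos. The embryos were of the c57bl6.J X 129S6.sv strain. The labels give 2 libraries from mutants with a stop cassette, an insertion used to end transcription early, and 2 from wild-type embryos. Where the cassette sits, the number of its copies and how many embryos went into a library are not given in the labels. The study concerns the lncRNA Maenli and its dependent gene En1, which lie on another chromosome than these 4 genes.

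T-box factors bind DNA through a shared domain, the T-box. Tbx2 and Tbx3 are close relatives that mostly repress transcription, and in the limb bud they mark the anterior and posterior margins and respond to BMP and hedgehog signals. Tbx15 and Tbx18 form another related pair. Tbx15 is needed for the normal shape of the shoulder blade, and Tbx18 is known from proximal limb mesenchyme and from the somites.

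Each library has a list of peak summits, which are positions of 1 bp with a score. The lists held 79083 and 107827 summits for stop cassette replicates 1 and 2, and 51701 and 68471 for wild-type replicates 1 and 2. The read depth is unknown, so each score was turned into a percentile of its own list, from the weakest summit to the strongest. As a check of the tissue, 12 limb mesenchyme markers were examined for a summit within 1 kb of a start. Of these, 12, 11, 10 and 12 had one in the lists in the order above, and 10 had one in all 4. Among all protein-coding genes 61.6%, 64.5%, 59.1% and 61.6% had one. The counts were 4, 7, 4 and 3 of 8 limb ectoderm markers, 2, 4, 1 and 1 of 4 muscle precursor markers, 1, 2, 1 and 1 of 5 endothelial markers and 3, 3, 3 and 2 of 5 matched blood markers. They were 1, 3, 3 and 3 of 5 neural markers and 0 of 4 liver markers in every list. For the blood and muscle precursor markers the median levels did not overlap between genotypes. With no summit counted as 0, the median start percentile of the blood markers was 74.5 and 56.4 in the mutants and 10.4 and 0 in wild type. For the muscle precursor markers it was 12.1 and 35.4 against 0 and 0. Not all of them went this way: Myod1 had no start summit in stop cassette replicate 1, 81.2 in replicate 2, and 42.7 and 60.9 in wild type. The mutant lists are also the longer ones. Of 12860 protein-coding genes with a start summit in all 4 lists, 41.2% had both stop cassette percentiles above both wild-type ones, so this order is common. The medians of the other marker sets overlapped or tied between genotypes. The part of other cell types in the values below was not tested. In the peak names the wild-type libraries share a replicate number and differ in a sub-number, so they may be technical replicates. In that case each wild-type SD covers technical spread only. The permutation tests would then lack 2 independent wild-type libraries.

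All 4 genes had called open chromatin at a start in every list. Sequences at these starts are shown first because they differ in base composition. Capitals mark CG dinucleotides, the sequence is that of the gene's own strand on mm9, and annotated exons were left out. For Tbx3, Tbx15 and Tbx18 the window was centred on the strongest start summit of wild-type replicate 2. For Tbx2 that summit lies in the first exon, so the 200 bases before the start were taken instead, a choice made after the values were seen. The Tbx2 stretch (chr11:85645853-85646052, plus strand) had 73.5% G and C and 21 CG dinucleotides. The Tbx3 stretch (chr5:120120570-120120677, plus strand) had 72.2% and 6 in 108 bases. The Tbx15 stretch (chr3:99057168-99057367, plus strand), before the second annotated start, had 58.5% and 4. The Tbx18 stretch (chr9:87626104-87626303, minus strand) had 52.5% and 12.
Tbx2 start: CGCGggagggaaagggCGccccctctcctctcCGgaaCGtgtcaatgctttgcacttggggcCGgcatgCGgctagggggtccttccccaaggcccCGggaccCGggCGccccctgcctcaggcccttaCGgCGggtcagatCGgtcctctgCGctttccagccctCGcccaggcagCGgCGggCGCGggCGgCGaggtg
Tbx3 start: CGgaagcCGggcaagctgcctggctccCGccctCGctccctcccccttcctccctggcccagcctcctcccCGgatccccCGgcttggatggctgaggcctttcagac
Tbx15 second start: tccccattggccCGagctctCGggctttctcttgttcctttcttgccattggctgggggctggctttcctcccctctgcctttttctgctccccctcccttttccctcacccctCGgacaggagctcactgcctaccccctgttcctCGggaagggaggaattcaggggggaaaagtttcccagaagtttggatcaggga
Tbx18 start: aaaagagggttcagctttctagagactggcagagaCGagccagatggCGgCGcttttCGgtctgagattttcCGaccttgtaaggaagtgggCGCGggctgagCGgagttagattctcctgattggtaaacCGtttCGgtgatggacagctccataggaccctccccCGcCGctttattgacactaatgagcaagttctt

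Away from the starts, the region of the Tbx2, Tbx15 and Tbx18 loci with the highest mean percentile, among those in all 4 lists and not at the start of another gene, is shown for comparison, over 200 bases around its highest-ranked summit. In the Tbx2 locus it lay between Tbx2 and Tbx4 (chr11:85689924-85690123, plus strand), with 70.0% G and C and 13 CG dinucleotides. In the Tbx3 locus no region away from the starts was in all 4 lists, and none is shown. In the Tbx15 locus it lay in an intron of Tbx15 (chr3:99116293-99116492, plus strand; 47.5% and 3). In the Tbx18 locus it lay before the gene (chr9:87635553-87635752, minus strand; 62.5% and 7).
Tbx2 distal: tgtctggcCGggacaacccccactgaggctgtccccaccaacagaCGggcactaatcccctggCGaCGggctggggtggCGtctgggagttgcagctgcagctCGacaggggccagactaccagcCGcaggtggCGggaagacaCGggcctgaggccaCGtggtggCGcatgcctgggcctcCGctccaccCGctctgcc
Tbx15 intronic: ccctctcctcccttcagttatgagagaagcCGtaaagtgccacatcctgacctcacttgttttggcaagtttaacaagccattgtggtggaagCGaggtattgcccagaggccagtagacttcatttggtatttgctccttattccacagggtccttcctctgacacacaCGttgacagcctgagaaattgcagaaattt
Tbx18 distal: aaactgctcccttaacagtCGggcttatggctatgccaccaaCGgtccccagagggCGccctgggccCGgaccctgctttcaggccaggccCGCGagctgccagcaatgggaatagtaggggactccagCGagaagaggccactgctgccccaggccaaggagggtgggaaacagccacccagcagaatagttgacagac

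Over 300 bases around the highest-ranked summit, the 5 regions at member starts had a median of 60% G and C and a CG content of 0.718 of that expected from the bases. The 18164 regions of the genome within 1 kb of any start had medians of 62.7% and 0.731. The 43 other regions of the 4 loci had medians of 52.0% and 0.263, against 48.3% and 0.233 for the 56411 regions farther from a start. These 2 sets are not alike, since 5 of the 43 lay within 1 kb of the start of another gene and none of the 56411 did. The medians at member starts were thus close to those of starts in general. The region at the second Tbx15 start had the lowest CG content of the 5 regions at member starts, with 60% G and C and a CG ratio of 0.296.

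At its start, Tbx3 had the highest percentiles of the 4 genes in wild type. Tbx3 (ENSMUSG00000018604.11) spans 120120678 to 120134733 on the plus strand of chromosome 5 and has 6 annotated starts. Each of the 4 lists held 3 summits within 1 kb of them. The percentile of the strongest was 62.9 and 78.0 in stop cassette replicates 1 and 2, and 84.8 and 83.1 in wild-type replicates 1 and 2. Both wild-type values were above both stop cassette values. The means were 83.9 ± 1.14 in wild type and 70.5 ± 10.7 with the stop cassette (SD, n = 2 each), a difference of -13.5 percentile points (exact permutation test, two-sided, p = 0.333). With 2 libraries against 2, 0.333 is the smallest p-value that this test can give. Of the 12860 protein-coding genes with a start summit in all 4 lists, 4.34% had both wild-type lists above both stop cassette lists.

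The strongest Tbx3 summits fell within 56 bp of each other. They lay 14 bp after the first start in stop cassette replicate 1, 35 bp before it in replicate 2, and 42 and 8 bp before it in wild-type replicates 1 and 2. The merged region that holds all start summits (120120103 to 120121283) was 1181 bp long. It also overlaps an intron of Gm2301, an antisense transcript annotated from a start 347 bp from the nearest Tbx3 start. A summit cannot be given to either strand, so openness at Tbx3 and at Gm2301 cannot be told apart.

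Tbx18 was near Tbx3 in level, with little spread over the lists. Tbx18 (ENSMUSG00000032419.7) spans 87597635 to 87626095 on the minus strand of chromosome 9 and has 1 annotated start. The percentile of its strongest start summit was 69.2 and 76.9 in the mutants and 74.6 and 70.4 in wild type. The groups overlapped, with means of 73.0 ± 5.47 and 72.5 ± 2.97 (SD, n = 2 each). The difference of 0.56 percentile points was smaller than either SD (exact permutation test, two-sided, p = 1). These summits lay 61, 109, 100 and 109 bp before the start. A second, weaker summit within the gene, 393 to 455 bp after the start, was called in both stop cassette lists and in wild-type replicate 2. It ranked at the 1.70, 67.0 and 18.0 percentiles.

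The merged regions at the first and second Tbx15 starts were held by all 4 lists, and which of them held the strongest summit differed. Tbx15 (ENSMUSG00000027868.5) spans 99044304 to 99158182 on the plus strand of chromosome 3 and has 3 annotated starts. Near the first start, summits 590 and 878 bp after it ranked at the 34.4 and 24.4 percentiles of stop cassette replicate 1. A summit 651 bp after it ranked at the 73.4 percentile of stop cassette replicate 2, and one 655 bp after it at the 41.6 percentile of wild-type replicate 1. Wild-type replicate 2 had no summit within 1 kb of the first start, but it had one in the same merged region, at position 99045575 and the 12.7 percentile. Before the second start, all 4 lists had a summit at 407, 483, 410 and 415 bp. There the percentiles were 52.1 and 37.3 in the mutants and 0.431 and 26.4 in wild type. The third start had no summit in any list.

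Taking the strongest start summit of Tbx15, the percentiles were 52.1 and 73.4 in the mutants and 41.6 and 26.4 in wild type. The groups did not overlap, and their means were 62.7 ± 15.1 and 34.0 ± 10.8 (SD, n = 2 each). The difference was 28.8 percentile points (exact permutation test, two-sided, p = 0.333). In 41.2% of the 12860 genes both stop cassette lists were above both wild-type lists in the same way, so this order is common. The strongest summit was at the second start in stop cassette replicate 1 and wild-type replicate 2, and at the first start in the other lists.

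Tbx2 had the lowest mean start percentile of the 4 in both genotypes. Tbx2 (ENSMUSG00000000093.6) spans 85646053 to 85655450 on the plus strand of chromosome 11 and has 1 annotated start. The percentile of its strongest start summit was 15.2 and 53.3 in the mutants and 1.53 and 32.2 in wild type. In each genotype replicate 2 was higher than replicate 1, and the groups overlapped. The means were 34.3 ± 26.9 and 16.9 ± 21.7 (SD, n = 2 each), and the difference of 17.4 percentile points was within this spread (exact permutation test, two-sided, p = 0.667). The number of start summits was 1 and 3 in the mutants and 1 and 2 in wild type. The position of the strongest one also varied, from 23 bp after the start in stop cassette replicate 2 to 397 bp after it in wild-type replicate 1. The start of the lincRNA 2610027K06Rik lies 328 bp away on the opposite strand, so the merged region (85645544 to 85646700) serves both annotated starts.

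Within each list Tbx3 and Tbx18 took the first 2 places. Tbx15 came next in 3 lists and Tbx2 in wild-type replicate 2. In wild type the order of the means was Tbx3, Tbx18, Tbx15 and Tbx2, where the Tbx15 and Tbx2 values overlapped. With the stop cassette it was Tbx18, Tbx3, Tbx15 and Tbx2, and each gene overlapped the next, with the Tbx15 and Tbx2 ranges meeting between 52.1 and 53.3. The number of start summits did not separate the genotypes for any of the 4 genes. Both stop cassette lists had more start summits than both wild-type lists in 20% of 14645 genes, and fewer in 6.24%.

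**Figure D1:**
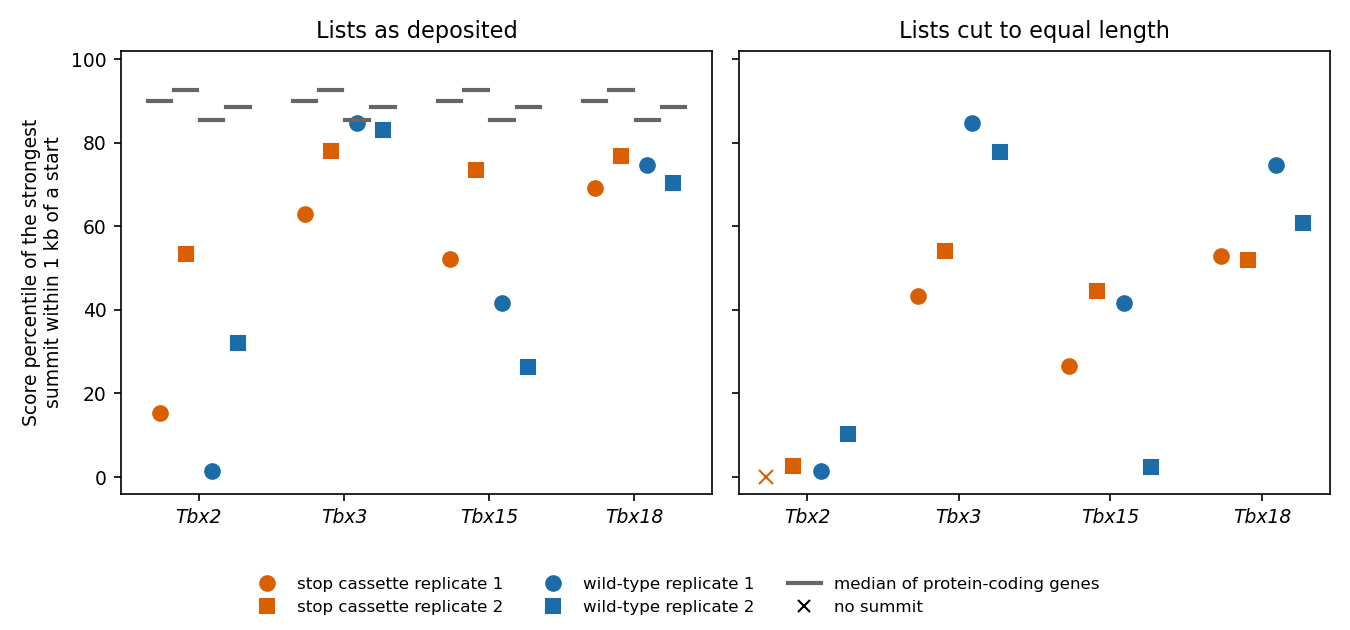
Score percentile (vertical axis, 0 to 100) of the strongest summit within 1 kb of a start of each gene (horizontal axis), 1 point per list, as deposited on the left and at equal list length on the right. Grey bars on the left are the medians of all protein-coding genes with a start summit in that list, and a cross marks no summit. The 4 genes lie below the grey bar of each list, and the wild-type points of Tbx3 lie above its stop cassette points in both panels.

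Compared with the median protein-coding gene, these starts ranked low. The median protein-coding gene with a start summit ranked at the 90.0, 92.6, 85.5 and 88.6 percentiles of stop cassette replicates 1 and 2 and wild-type replicates 1 and 2. Each of the 4 members was below that median in 4 of 4 lists. Among those genes, ranked from the weakest start, Tbx2 stood between the 0.238 and 7.54 percentiles over the 4 lists. Tbx15 stood between 3.74 and 15.7, Tbx18 between 18.1 and 30.3, and Tbx3 between 15.7 and 48.1. A start summit in all 4 lists was itself common, at 57.5% of 22350 protein-coding genes. Low start percentiles were not particular to the 4 genes. The 12 limb mesenchyme markers had medians of 45.3, 66.0, 38.6 and 58.5 in the same list order, with no summit counted as 0. Tbx3 and Tbx18 were above these medians in each list, and Tbx2 was below them. Tbx15 was above them in all lists but wild-type replicate 2.

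The lists differ in length, and a percentile rises when weak summits are added below it. With each list cut to its 51701 highest scores, Tbx3 ranked at 43.3 and 54.1 in the mutants and at 84.8 and 77.7 in wild type. The means were 48.7 ± 7.69 and 81.2 ± 5.01 (SD, n = 2 each), a difference of -32.5 percentile points (exact permutation test, two-sided, p = 0.333). The wild-type lists were again the higher ones, as in 19.9% of 12244 genes at equal length, against 20.2% in the other direction. Tbx18 then ranked at 52.9 and 51.9 in the mutants and at 74.6 and 60.8 in wild type, so its direction turned and its groups no longer overlapped (difference -15.3, exact permutation test, two-sided, p = 0.333). Tbx15 overlapped, at 26.7 and 44.5 against 41.6 and 2.47. Tbx2 had no start summit left in stop cassette replicate 1 and ranked at 2.60, 1.53 and 10.2 in the other lists.

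The surroundings were then counted as summits within 100 kb of each gene body. Tbx2 had the most and Tbx3 the fewest in each of the 4 lists. Tbx2 shared its window with Tbx4 and with the protein-coding genes Bcas3 and Gm11444. Without summits within 1 kb of another gene's start, Tbx2 had 10 and 24 in the mutants and 9 and 17 in wild type. Tbx15 then had more in stop cassette replicate 2 (27), and Tbx18 as many in stop cassette replicate 1 (10). This also leaves out the start summits of Tbx2, which lie near a lincRNA start. Around Tbx2 there were 15 and 33 summits in the mutants and 10 and 21 in wild type. Around Tbx15 there were 10 and 30 against 6 and 14. Around Tbx18 there were 10 and 15 against 6 and 12, and around Tbx3 6 and 10 against 3 and 6.

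Stop cassette replicate 2, the longest list, had the highest count for each gene, and wild-type replicate 1, the shortest, had the lowest. Wild-type replicate 2 exceeded stop cassette replicate 1 around Tbx2, Tbx15 and Tbx18 and equalled it around Tbx3, so the genotypes overlapped or met. The differences in means were 8.5 summits for Tbx2 (24 ± 12.7 against 15.5 ± 7.78), 3.5 for Tbx3 (8 ± 2.83 against 4.5 ± 2.12), 10 for Tbx15 (20 ± 14.1 against 10 ± 5.66) and 3.5 for Tbx18 (12.5 ± 3.54 against 9 ± 4.24; SD, n = 2 each). Each exact permutation test, two-sided, gave p = 0.667. Both stop cassette lists were above both wild-type lists in 61.2% of 20618 genes with a summit in their window, and below in 0.611%. None of the 4 members showed either pattern.

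As a share of the list, the genotypes were close and replicate 2 was the higher library. Per 10000 summits, Tbx2 had 1.90 (95% Wilson interval 1.15 to 3.13) and 3.06 (2.18 to 4.30) with the stop cassette. It had 1.93 (1.05 to 3.56) and 3.07 (2.01 to 4.69) in wild type, so same-numbered libraries of both genotypes had nearly equal shares. Tbx15 had 1.26 and 2.78 against 1.16 and 2.04, Tbx18 had 1.26 and 1.39 against 1.16 and 1.75, and Tbx3 had 0.759 and 0.927 against 0.580 and 0.876. In each of the 4 genes the replicate 2 share was above the replicate 1 share of its genotype, as in 17.5% of the 20618 genes. The Wilson intervals, which cover counting error only, overlapped between the replicates for each gene. The genotypes overlapped for all 4, where both stop cassette shares were above both wild-type shares in 13.7% of genes and below in 19.3%.

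At equal list length the Tbx2 window held 8 and 9 summits in the mutants and 10 and 12 in wild type. The wild-type lists were both higher there (exact permutation test, two-sided, p = 0.333), as in 11.4% of 20271 genes (15.6% had both stop cassette lists higher), and the direction was opposite to that of the lists as deposited. The other windows overlapped or tied, with 2 and 4 against 3 and 3 for Tbx3, 5 and 8 against 6 and 11 for Tbx15, and 4 and 9 against 6 and 8 for Tbx18.

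**Figure D2:**
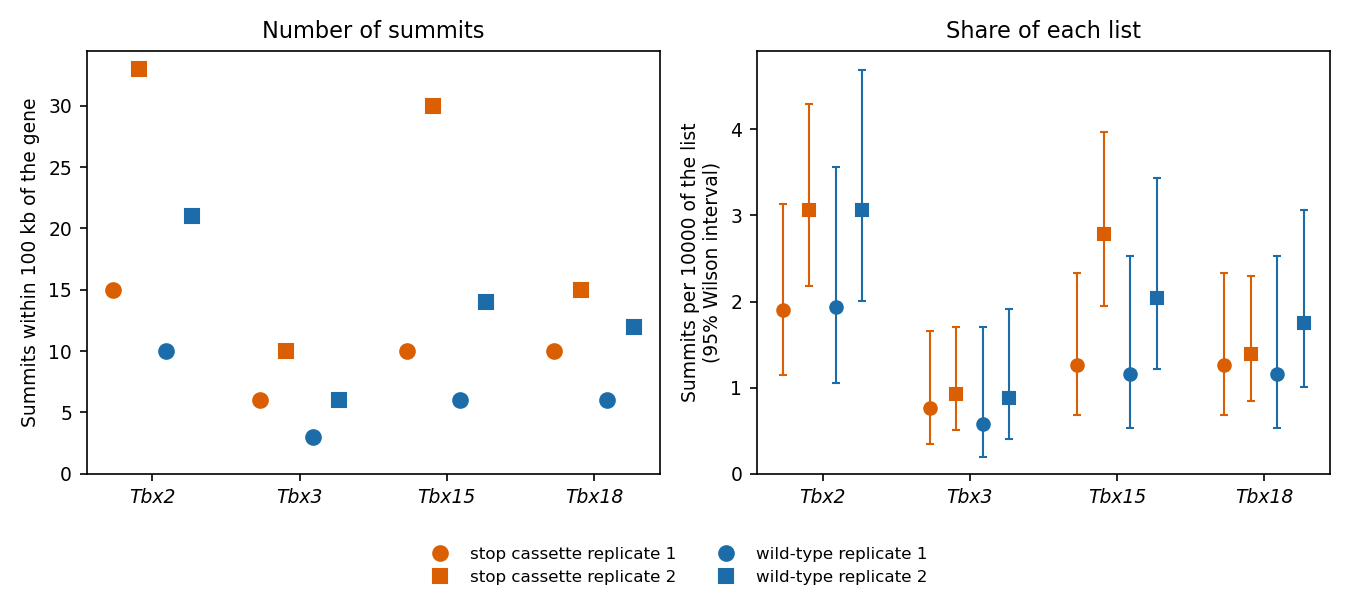
Summits within 100 kb of each gene by list: the number on the left, and the number per 10000 summits of the list on the right with 95% Wilson intervals, which cover counting error only. Squares (replicate 2) lie above circles (replicate 1) of the same genotype for each gene, and the wild-type and stop cassette points of the same replicate number nearly coincide for Tbx2 on the right.

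Per 100 kb of window, the Tbx2 surroundings ranked between the 61.3 and 91.4 percentiles of protein-coding genes over the 4 lists. Tbx18 ranked between 38.3 and 57.5 and Tbx15 between 28.7 and 69.8. Tbx3 ranked lowest, between 22.7 and 33.9. The side of the gene also differed. Around Tbx2, 12 of 15, 23 of 33, 8 of 10 and 18 of 21 summits lay after the gene, towards Tbx4. Inside the long Tbx15 gene lay 7 of 10, 14 of 30, 4 of 6 and 7 of 14 summits. The Tbx3 window of wild-type replicate 1 held no summit besides the 3 at the starts.

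Summits of the 4 lists, extended by 250 bp on each side and merged, gave 48 regions in the 4 windows. There were 18 around Tbx2, 6 around Tbx3, 15 around Tbx15 and 9 around Tbx18. All 4 lists held 14 of them (29.2%), against 32.0% of the 74669 regions of the genome. These were 5, 1, 4 and 4 in the order above. The 5 regions at member starts were in all 4 lists, and 9 of the 43 others were. The share of start regions alone over the genome is not given here, but 57.5% of protein-coding genes had a start summit in all 4 lists. At equal list length, only the start regions of Tbx3 and Tbx18 were in all 4 lists, and those of Tbx2 and Tbx15 were not. Stop cassette replicate 2, the longest list, alone held 10 regions (20.8%, against 22.1% of the genome). The other single lists held 3, and 9 regions (18.8%) lacked only wild-type replicate 1, the shortest list. The genome shares of these patterns are not given here. Regions in all 4 lists had a median length of 1111 bp, and those in 1 list had 501 bp, the length that a lone summit gives.

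**Figure D3:**
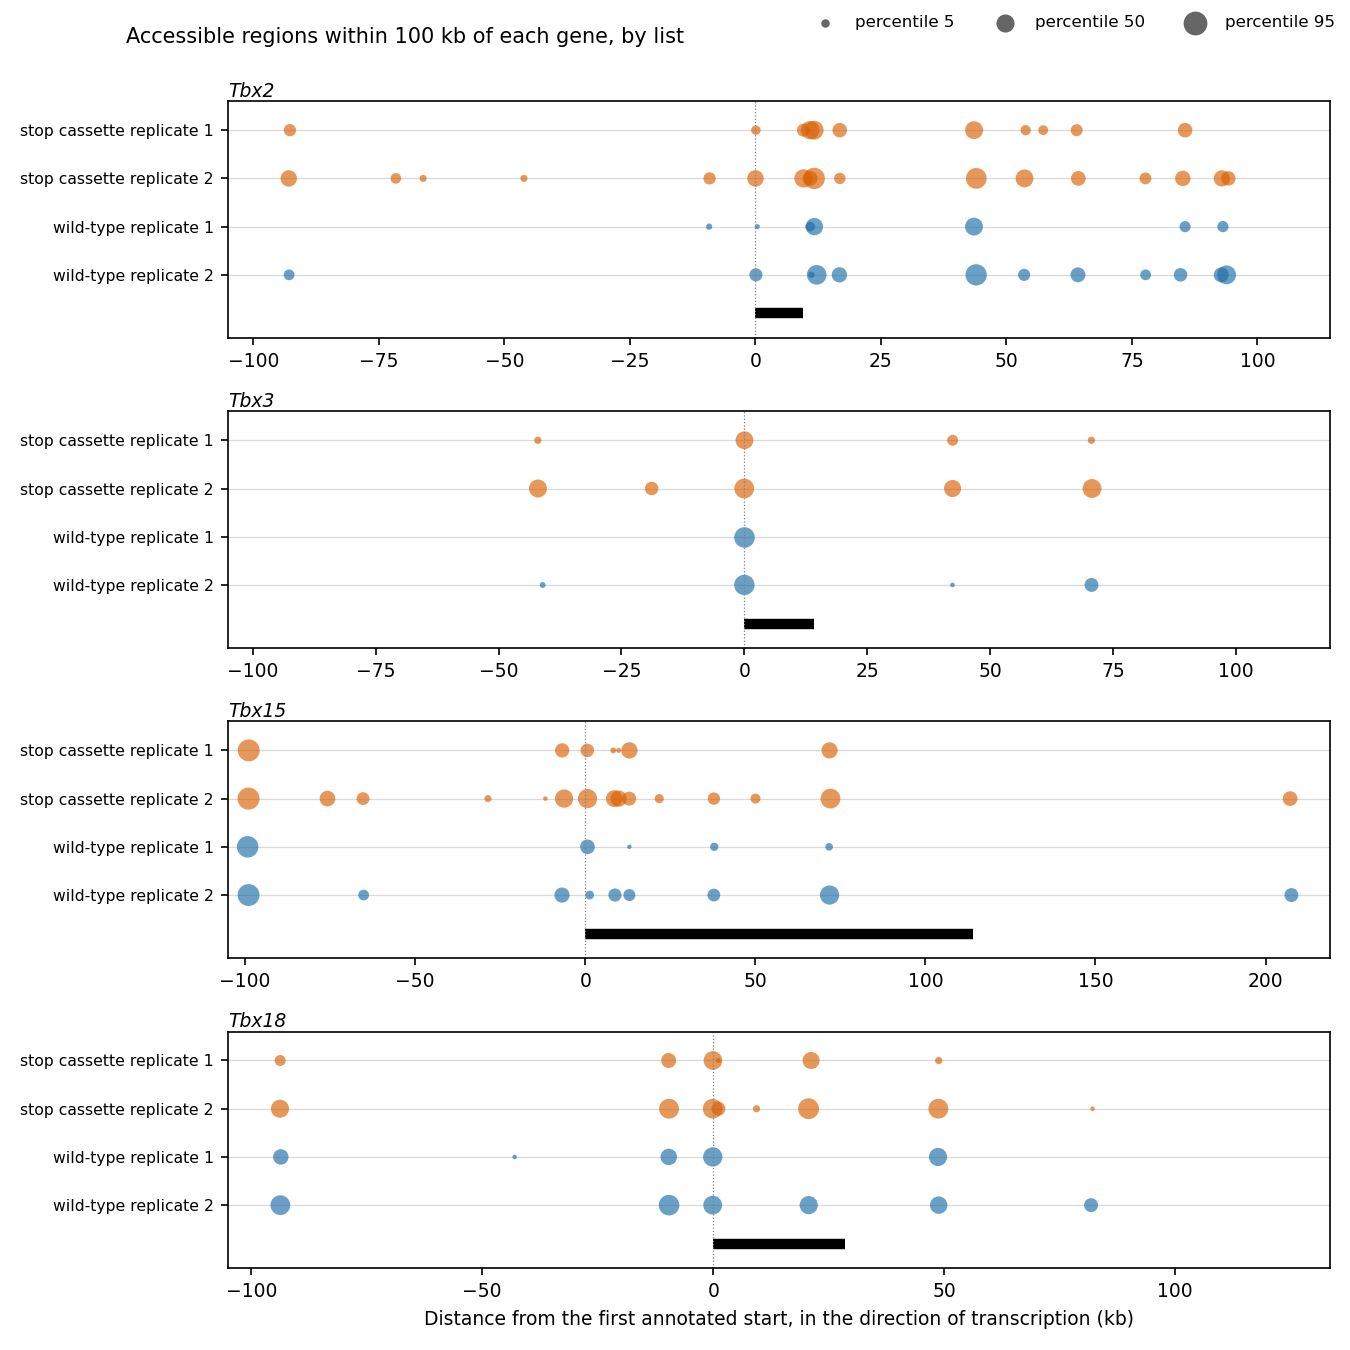
Merged regions within 100 kb of each gene, placed by the strongest summit of each list, against the distance in kb from the first annotated start in the direction of transcription. Rows are the 4 lists, the size of a point is its score percentile, and the black bar is the gene. Regions cluster after Tbx2, while Tbx3 has a single region held by all 4 lists, at its start.

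Around Tbx2, the top region by mean percentile among those in all 4 lists lay 43971 bp after its start and 9900 bp before the nearest Tbx4 start, in intergenic sequence (85689348 to 85690481). It ranked at the 63.5 and 86.3 percentiles in the mutants and at 63.2 and 91.3 in wild type, with replicate 2 higher in both genotypes. It ranked above the Tbx2 start in each list. The next lay 11738 bp after the start, just past the end of the gene (85657527 to 85658614), at 70.1 and 91.2 against 59.6 and 76.9. The third, 85133 bp after the start and beyond Tbx4 (85730478 to 85731896), ranked at 40.9 and 45.9 against 22.2 and 34.7.

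Tbx4, the hindlimb T-box gene whose start lies 53871 bp from that of Tbx2, shares this window. Its start percentile was 26.2 and 63.4 in the mutants and 43.0 in wild-type replicate 2, and wild-type replicate 1 had no start summit.

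The Tbx18 window holds no other annotated gene. Away from the start, the region with the highest mean percentile among those in all 4 lists lay 9558 bp before the start (87634174 to 87635983, intergenic, 1810 bp) at 43.2 and 78.9 against 53.3 and 84.9. Another, 48734 bp after the start and past the end of the gene (87576803 to 87577680), ranked at 7.55 and 78.8 against 65.4 and 59.9. The third, 93699 bp before the start (87719447 to 87720125), ranked at 21.6 and 65.3 against 46.6 and 78.2. In these 3 regions stop cassette replicate 1 was the lowest list. An intronic region (87604664 to 87605702) was in 3 lists, at 56.9 and 87.3 in the mutants and 65.6 in wild-type replicate 2, and wild-type replicate 1 lacked it.

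Around Tbx15 the highest-ranked region was the start of the neighbouring Wars2, a mitochondrial tryptophan tRNA synthetase gene (98944784 to 98945848), at 97.1 and 98.2 against 92.9 and 96.7. Within Tbx15, the intronic region shown above (99115310 to 99116643), 15960 bp after the third start, ranked at 51.0 and 78.2 against 8.65 and 73.6. A further region 6224 bp before the first start (99037208 to 99038820, in an intron of Wars2) was in 3 lists, at 38.9, 66.0 and 44.4, and absent from wild-type replicate 1.

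Around Tbx3 no region besides the start was in all 4 lists. Intergenic regions 32257 and 60628 bp after the nearest start (120162754 to 120163284 and 120191015 to 120191638) were each in 3 lists and not in wild-type replicate 1. The nearer ranked at 21.6 and 57.7 in the mutants and 0.811 in wild-type replicate 2, and the farther at 7.55, 71.1 and 36.9. The Tbx5 start lies outside this window. Tbx5, the forelimb T-box gene next to Tbx3, had 0 start summits in each of the 4 lists.

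Regions called in both mutant libraries but in no wild-type library numbered 4 of 48 (8.33%), 1 at each gene, against 10% of the regions of the genome. No region was held by both wild-type lists alone, against 0.313%. The Tbx2 region (85655393 to 85655899), 9590 bp after the start, where its summits lie just past the end of the gene, ranked at 32.1 and 66.4. The Tbx15 region (99053852 to 99054357), in an intron, ranked at 1.62 and 51.9. The Tbx18 region (87624724 to 87625225), 1120 bp after the start in an intron, ranked at 1.96 and 37.3. In each of these 3, replicate 1 was the weaker list, and at equal list length none of the 4 was held by both stop cassette lists.

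With lists of equal length, 0 regions were in the mutant libraries alone and 2 were in the wild-type libraries alone. The first lay beyond Tbx4 in the Tbx2 window (85738592 to 85739419), at the 22.8 and 25.4 percentiles. The second lay in a Tbx15 intron (99081854 to 99082477), at 10.8 and 8.23. As deposited, stop cassette replicate 2 held both of these.

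The regions were searched for short motifs on both strands, over 300 bases around the highest-ranked summit. The T-box octamer AGGTGTGA was in 1 of 48 regions, against 1.28% of 74575 regions of the genome. The match was in the Tbx18 region 93699 bp before the start, and 100 bases around it are shown with the octamer in capitals (chr9:87719625-87719724, minus strand).
Tbx18 T-box match: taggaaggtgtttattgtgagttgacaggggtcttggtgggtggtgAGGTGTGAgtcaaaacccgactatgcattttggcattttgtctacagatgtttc

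The shorter core GGTGTG, which lies within the octamer, was in 5 of 48 regions (10.4%, against 20.2% of the genome) and in 0 of 5 regions at member starts. The homeobox core TAATTA was in 5 of 48 (10.4%, against 8.11%) and the E-box CATCTG in 10 of 48 (20.8%, against 25.4%). That E-box was at 1 of 5 starts, Tbx18, and its reverse complement can be read in the Tbx18 start sequence above. The GLI motif GACCACCCA was in 0 of 48 (0.327% of the genome), the SMAD motif GTCTAGAC in 0 of 48 (0.302%) and the ETS motif ACCGGAAGT in 0 of 48 (0.451%). A match describes letters and not a bound factor.

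Other T-box genes gave a scale for the family. Of 13, a start summit was in the list for 8, 7, 5 and 7 in the usual order, in all 4 lists for 4 and in none for 4. In all 4 lists were Mga, a widely expressed gene, Tbx6, Tbx20 and Tbr1. Mga ranked at the 93.6 and 97.6 percentiles in the mutants and at 92.1 and 87.9 in wild type. Tbx20, known from heart, ranked at 61.3 and 73.7 against 87.3 and 76.0. Tbr1, known from cortex, ranked at 42.2 and 53.3 against 61.0 and 31.7. Tbx5, Tbx10, Tbx19 and Tbx21 had no start summit in any list. A start summit in all 4 lists as deposited was thus found for 4 of 4 members and 4 of 13 other T-box genes, against 57.5% of all protein-coding genes. At equal list length Tbx2 had none in stop cassette replicate 1. The members were also chosen as limb mesenchyme genes with earlier results of these data known.

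**Figure D4:**
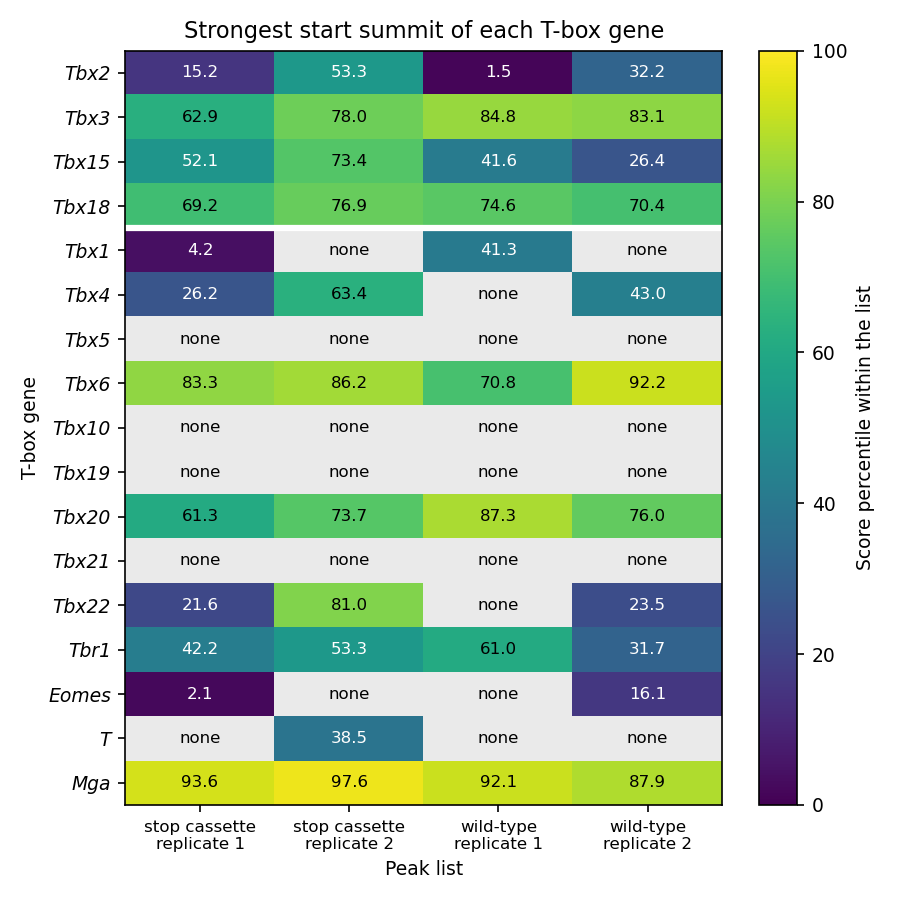
Score percentile of the strongest summit within 1 kb of a start for each T-box gene (rows) in each list (columns), with the value written in each cell and "none" where no summit was called. The 4 genes above the white line have a value in each list, whereas Tbx5, Tbx10, Tbx19 and Tbx21 have none.

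Lists of genes linked to these factors in the limb were read against the 57.5% of protein-coding genes with a start summit in all 4 lists. Of 12 BMP and hedgehog genes, which act before or beside Tbx2 and Tbx3, 10, 12, 10 and 11 had a start summit, and 10 had one in all 4 lists. Shh, the posterior hedgehog ligand, had one in stop cassette replicate 2 only, at the 28.5 percentile. Ptch1, its receptor, ranked at 83.2 and 86.1 in the mutants and at 72.2 and 82.6 in wild type. Of 9 shoulder girdle genes linked to Tbx15, 8 had a start summit in all 4 lists. Alx4, a paired-type homeobox gene, ranked at 39.2 and 66.9 against 52.0 and 27.2. Of 7 genes described as repressed by Tbx2 or Tbx3, 6 had a start summit in all 4 lists, and Nppa had none. Cdkn1a, a cell cycle inhibitor, ranked at 83.4 and 80.2 against 56.1 and 85.9.

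By distance in the 4 start percentiles over the 12860 genes with a start summit in all lists, the genes most like Tbx3 were Etv4 (3.79 percentile points) and Gpm6b (4.73). For Tbx18 they were Sema4d (2.78) and Cpz (4.60), and for Tbx15 Pth2r (8.03) and Ccdc65 (8.26). For Tbx2 they were Wnt9a (10.2) and Gm5089 (11.1). The nearest gene to Tbx2 was thus farther away than those of the other members.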

How the data were processed

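ATAC-seq of E11.5 mouse limb cells gave 1 list of summits for each of 4 libraries, 2 per genotype. Per the submitters' processing notes, Bowtie2 2.2.6, Picard and the mm9 build were used, and per the peak names in the deposited lists duplicate and mitochondrial reads were removed at a mapping quality of 30. The peak caller, any shift of reads for the transposase and any control are not given in the sources used here. The deposited score behaves as −log10 of a q-value, with a lowest value that corresponds to 0.05. It depends on the depth and background of its own library, which are unknown, so it was ranked within a list. Scores were used only to rank summits.

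Starts and gene bodies came from GENCODE M1 on NCBIM37, the same build as the lists. Summits within 1 kb of an annotated start, and within 100 kb of the gene body, were counted. Regions were made by extending summits by 250 bp and merging at an overlap of 1 bp or more, since the lists hold no peak widths. Groups were compared with exact permutation tests over the 6 assignments of libraries (Python 3.11.15, scipy 1.17.1). Intervals are Wilson intervals at 95%. Motifs were matched exactly on both strands. The counting was tested on simulated lists. The 4 genes and the gene lists were chosen with earlier results of these data known. Named regions are those at starts, up to 3 per gene in all 4 lists with the highest mean percentile, and those of a single genotype. The named genes most like a member are the 2 with the smallest Euclidean distance. The 3-list regions and the genes named from the lists were chosen after their values were seen. Spi1 was not matched in the annotation by name. Alternatives were equal list length, a stricter score, other windows and extensions, other starts left out, each library left out, and a replicate block. The values of 1 named region of the Tbx3 locus and 1 gene of the lists are not reported here.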

Additional observations from a re-analysis of the deposited data

How the results depend on the processing

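The differences between genotypes in start summits, start percentile and locus summits were recomputed under the alternatives. Of these values, 91 kept their direction or stayed at 0, 11 reversed and 7 moved to or from 0. The 91 include the replicate block, which cannot change a difference, and settings where the Tbx3 start summits stayed at 0. They also include the libraries left out for the Tbx3 and Tbx15 start percentiles, whose sign could not change as the groups did not overlap. A list without a start summit under a setting gave no value, as for the Tbx2 start percentile at equal length. Equal list length changed most. It gave Tbx2 -0.5 start summits and -2.5 locus summits, Tbx15 -0.5 and -2, Tbx18 a start percentile of -15.3 and -0.5 locus summits, and Tbx3 -1 start summits and 0 locus summits. The stricter score (above 5.83) gave Tbx3 -0.5 start summits, and a start window of 500 bp gave Tbx15 0. Fewer summits enter at equal length by construction.

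With one library left out at a time, the difference ranged from -0.5 to 1.5 start summits, -1.61 to 36.4 percentile points and -0.5 to 17.5 locus summits for Tbx2, with the lowest of each without stop cassette replicate 2. It ranged from 0 (without stop cassette replicate 2) to 20 locus summits for Tbx15, from 1.5 (without stop cassette replicate 2) to 5.5 for Tbx3 and from 0.5 (without wild-type replicate 1) to 6.5 for Tbx18. For Tbx18 it ranged from 0 to 1 start summits and from -3.30 to 4.42 percentile points, and was below 0 when either replicate 2 library was dropped. For Tbx3 the percentile difference ranged from -21.0 to -5.94, and for Tbx15 from 18.1 to 39.4. Neither could change sign, since the groups of both genes did not overlap as deposited and leaving out a library cannot reverse such a difference.

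Of the region counts, 40 values stayed within 1.5 times and 20 did not. Regions in all 4 lists fell to 2 for Tbx2, Tbx15 and Tbx18 at equal length, to 2, 1 and 1 under the stricter score, and to 2 for Tbx15 with an extension of 100 bp. They ranged from 5 to 9 for Tbx2 and from 1 to 3 for Tbx3 with a library left out, each highest without wild-type replicate 1. Regions specific to the stop cassette lists numbered 0 at equal length and under the stricter score, 2 with 500 bp, 7 with a window of 200 kb, and 4 to 14 with a library left out (14 when stop cassette replicate 1 was dropped and 13 when wild-type replicate 2 was). Those specific to wild type numbered 2 at equal length, 1 with 100 bp and 0 to 2 with a library left out.

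Treating replicate numbers as pairs (replicate block) left each difference as it was, such as 28.8 for Tbx15 and -13.5 for Tbx3, since the mean of the pair differences is the same. Its sign-flip test cannot give a p-value under 0.5. Same-numbered libraries deviated together only weakly (correlation 0.181 over 23894 regions in all 4 lists), and the labels do not say that numbers pair. With 2 libraries per genotype no test here could reach 0.05.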
